A study of Mus musculus with 14 samples.

Results

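The genes described here encode the protein components of the cytosolic ribosome. They were chosen by name: protein-coding genes of GENCODE M21 whose symbol is Rpl or Rps followed by a number, the genes of the acidic stalk and Rpsa, and 6 named paralogs. The rule found 82 genes among the 55487 of the count table: 43 of the large subunit, 30 of the small subunit, 3 of the stalk (Rplp0, Rplp1 and Rplp2) and 6 paralogs (Rpl3l, Rpl7l1, Rpl22l1, Rpl36al, Rpl39l and Rps27l). Other ribosomal protein genes, among them Rps3a1, Fau and Rack1, lie outside the symbol rule and are given only for comparison. RNA was sequenced from whole hearts of untreated male C57BL/6 mice, from total RNA with ribosomal RNA depleted. Hearts of cardiac p62 knockout mice (Myh6-Cre-Sqstm1fl/fl) were taken at 15 months (4 libraries) and at 2 months (3 libraries), and wild-type hearts at 15 months (4 libraries) and at 2 months (3 libraries). Cre under the Myh6 promoter acts in cardiac muscle cells, so the other cells of a knockout heart keep Sqstm1, and the labels do not say whether wild-type mice carried Cre or the floxed allele.

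A cytosolic ribosome holds 1 copy of most of these proteins, and its proteins are made at matched rates so that subunits can be assembled in the nucleolus. Many of their mRNAs begin with a C followed by a run of pyrimidines, the 5′ terminal oligopyrimidine (TOP) tract, through which mTORC1 and LARP1 set their translation and stability. In striated muscle, the paralog Rpl3l replaces Rpl3 in part of the ribosomes.

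The start sites of several members show how this tract looks in the genes whose levels are described below. Of the 82 members, 62 had an entry among the RefSeq promoters (GRCm38.p6). Each window holds the 15 bases before the annotated start and the first 15 bases of the transcript, and capitals mark the longest run of a C followed by at least 4 pyrimidines that begins within 10 bases of the start.
Rplp0, stalk base, chr5:115559452-115559481, plus strand: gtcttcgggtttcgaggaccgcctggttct
Rplp2, stalk, chr7:141447636-141447665, plus strand: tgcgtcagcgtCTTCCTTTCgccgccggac
Rpl24, large subunit, chr16:55966260-55966289, plus strand: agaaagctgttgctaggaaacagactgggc
Rpl35, large subunit, chr2:39005117-39005146, minus strand: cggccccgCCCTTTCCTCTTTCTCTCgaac
Rpl39, large subunit, chrX:37085208-37085237, minus strand: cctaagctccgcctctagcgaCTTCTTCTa
Rpl4, large subunit, chr9:64173372-64173401, plus strand: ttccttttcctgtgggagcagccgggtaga
Rps27, small subunit, chr3:90213634-90213663, minus strand: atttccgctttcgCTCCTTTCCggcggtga
Rps6, small subunit, chr4:86857353-86857382, minus strand: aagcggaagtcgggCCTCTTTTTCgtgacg
Rps27l, paralog of Rps27, chr9:66946071-66946100, plus strand: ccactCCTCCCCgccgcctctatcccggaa
Rpl22l1, paralog of Rpl22, chr3:28805493-28805522, plus strand: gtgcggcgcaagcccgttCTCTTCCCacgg
Rpl3l, muscle paralog of Rpl3, chr17:24727811-24727840, plus strand: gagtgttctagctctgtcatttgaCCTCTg

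Such a tract was present in 38 of the 62 members (61.3%) and in 34.4% of all 27025 genes with a RefSeq promoter. Annotated starts can lie some bases from the start used in heart. A window without capitals says only that no such run begins within 10 bases of the annotated start. The Rpl4 window holds a run of this kind that begins further upstream and is not marked. In the Rps27l window the unbroken run also begins further upstream, and capitals mark only its part within 10 bases of the start. Promoter motifs were searched as exact letters on both strands, from 250 bases before the start to 50 after it. The SP1 motif GGGCGG was found in 61.3% of members and 38.2% of all genes, and the GABPA motif CCGGAAG in 40.3% of members and 9.9% of all genes. The YY1 motif AAGATGGC was found in 9.7% of members and 3.2% of all genes. The TATA box letters TATAAA were found in 11.3% of members and 15.7% of all genes. Matches counted at any position, so they do not show a working element. As examples of what was searched, the 250 bases before the start are given for Rplp0 and Rpl39. Rplp0 has the letters GGGCGG (capitals) and Rpl39 the letters TATAAA (capitals).
Rplp0, chr5:115559217-115559466, plus strand: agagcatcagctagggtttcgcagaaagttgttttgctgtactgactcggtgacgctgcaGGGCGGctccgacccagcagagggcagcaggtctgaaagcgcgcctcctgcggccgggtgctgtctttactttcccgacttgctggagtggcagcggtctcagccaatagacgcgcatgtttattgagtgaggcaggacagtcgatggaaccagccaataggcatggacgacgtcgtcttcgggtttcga
Rpl39, chrX:37085223-37085472, minus strand: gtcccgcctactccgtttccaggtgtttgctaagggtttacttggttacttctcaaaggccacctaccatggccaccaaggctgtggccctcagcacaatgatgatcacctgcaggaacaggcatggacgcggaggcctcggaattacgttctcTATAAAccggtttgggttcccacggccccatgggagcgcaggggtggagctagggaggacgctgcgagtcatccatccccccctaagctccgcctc

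The libraries held 20218992 to 30404416 counts. Sqstm1 lay between 14.6 and 37.0 CPM (counts scaled to the library total) in the 15-month knockout hearts, against 173 to 238 CPM in the 15-month wild-type hearts, and between 14.7 and 19.2 CPM in the 2-month knockout hearts, against 139 to 177 CPM in the 2-month wild-type hearts. Heart muscle was checked with 10 markers of cardiac muscle cells, all of which were detected in every group, at summed levels of 48900 to 95300 CPM. Wild-type replicate 1 at 2 months held more atrial transcripts, with 6 atrial markers summing to 1730 CPM, against 9.18 to 285 CPM in the other 13 libraries. Libraries also differed in how level depended on gene length, which is given for each library as a length slope: the regression, over genes, of log2 CPM relative to the mean of the 14 libraries on log2 exon length. A positive slope means that longer genes were counted more. The slope ran from -0.099 to 0.253 in the 15-month knockout libraries, from -0.080 to 0.123 in the 15-month wild-type libraries, from -0.143 to -0.047 in the 2-month knockout libraries and from -0.186 to -0.013 in the 2-month wild-type libraries. The members are short genes, with a median exon length of 1775.5 bases, against 4113 bases over all genes tested.

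Ribosomal protein transcripts together took 0.779% to 2.61% of the counts of a heart, with lower sums in most 15-month than 2-month hearts. The summed level of the 82 genes was 18488, 9128, 7133 and 10824 CPM in the 15-month knockout hearts. In the 15-month wild-type hearts it was 9804, 19310, 10275 and 12501 CPM. It was 26079, 18140 and 22752 CPM in the 2-month knockout hearts, and 15023, 31507 and 21859 CPM in the 2-month wild-type hearts. Replicate 1 of the 15-month knockout and replicate 2 of the 15-month wild type lay within the range of the 2-month hearts, and the other 6 aged hearts lay below all 6 young ones. The group means were 11393 ± 4965 CPM in 15-month knockout and 12972 ± 4386 CPM in 15-month wild-type hearts (SD, n = 4 each), and 22324 ± 3987 CPM in 2-month knockout and 22796 ± 8282 CPM in 2-month wild-type hearts (SD, n = 3 each). The mean at 15 months was thus 0.510 of that at 2 months in knockout and 0.569 in wild-type hearts. In whole hearts, fewer cells of a type and less RNA per cell cannot be told apart.

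**Figure D1:**
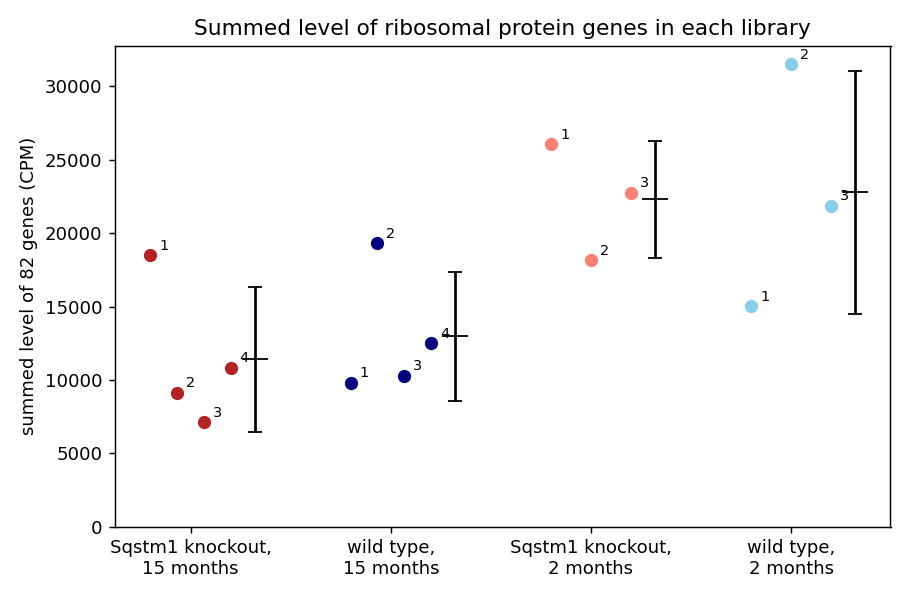
Summed level of the 82 ribosomal protein genes, in CPM, in each of 14 libraries, numbered by replicate. The bars give the mean and SD of a group. The 15-month groups average 11393 CPM (knockout) and 12972 CPM (wild type), and the 2-month groups 22324 CPM (knockout) and 22796 CPM (wild type), with 1 high library in each 15-month group.

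The members moved together from heart to heart. Of the 81 members tested, 78 had their lowest level in replicate 3 of the 15-month knockout hearts, and 78 had their highest level in replicate 2 of the 2-month wild-type hearts. These libraries also had the highest and the lowest length slope (0.253 and -0.186). The summed levels of mitochondrial ribosomal protein genes were likewise lowest (1956 CPM) and highest (5114 CPM) there, as were those of nuclear-encoded complex I subunits (6251 and 16631 CPM). The pattern is thus not particular to the members, and the share of all genes with it was not counted. The ratio of the summed levels of large to small subunit genes was higher in every 15-month than in any 2-month knockout heart. It lay between 1.11 and 1.26 in 15-month knockout and between 1.03 and 1.08 in 2-month knockout hearts. In wild-type hearts the ages overlapped, with ratios between 1.05 and 1.22 at 15 months and between 1.01 and 1.13 at 2 months. The change of this ratio with age was not tested. The standard deviation of log2 CPM over the 14 libraries was smallest for Rpl4 (0.120), Rpl29 (0.226), Rpl3l (0.268) and Rps26 (0.269). It was largest for Rps14 (1.004), Rpl22l1 (1.001), Rpl9 (0.996) and Rpl41 (0.968). Only Rpl39l, a paralog of Rpl39 known from testis, was too low to test, with 9 counts in the 15-month knockout, 2 in the 15-month wild-type, 12 in the 2-month knockout and 15 in the 2-month wild-type libraries together. Each of the other 81 had at least 111 counts in every library.

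**Figure D2:**
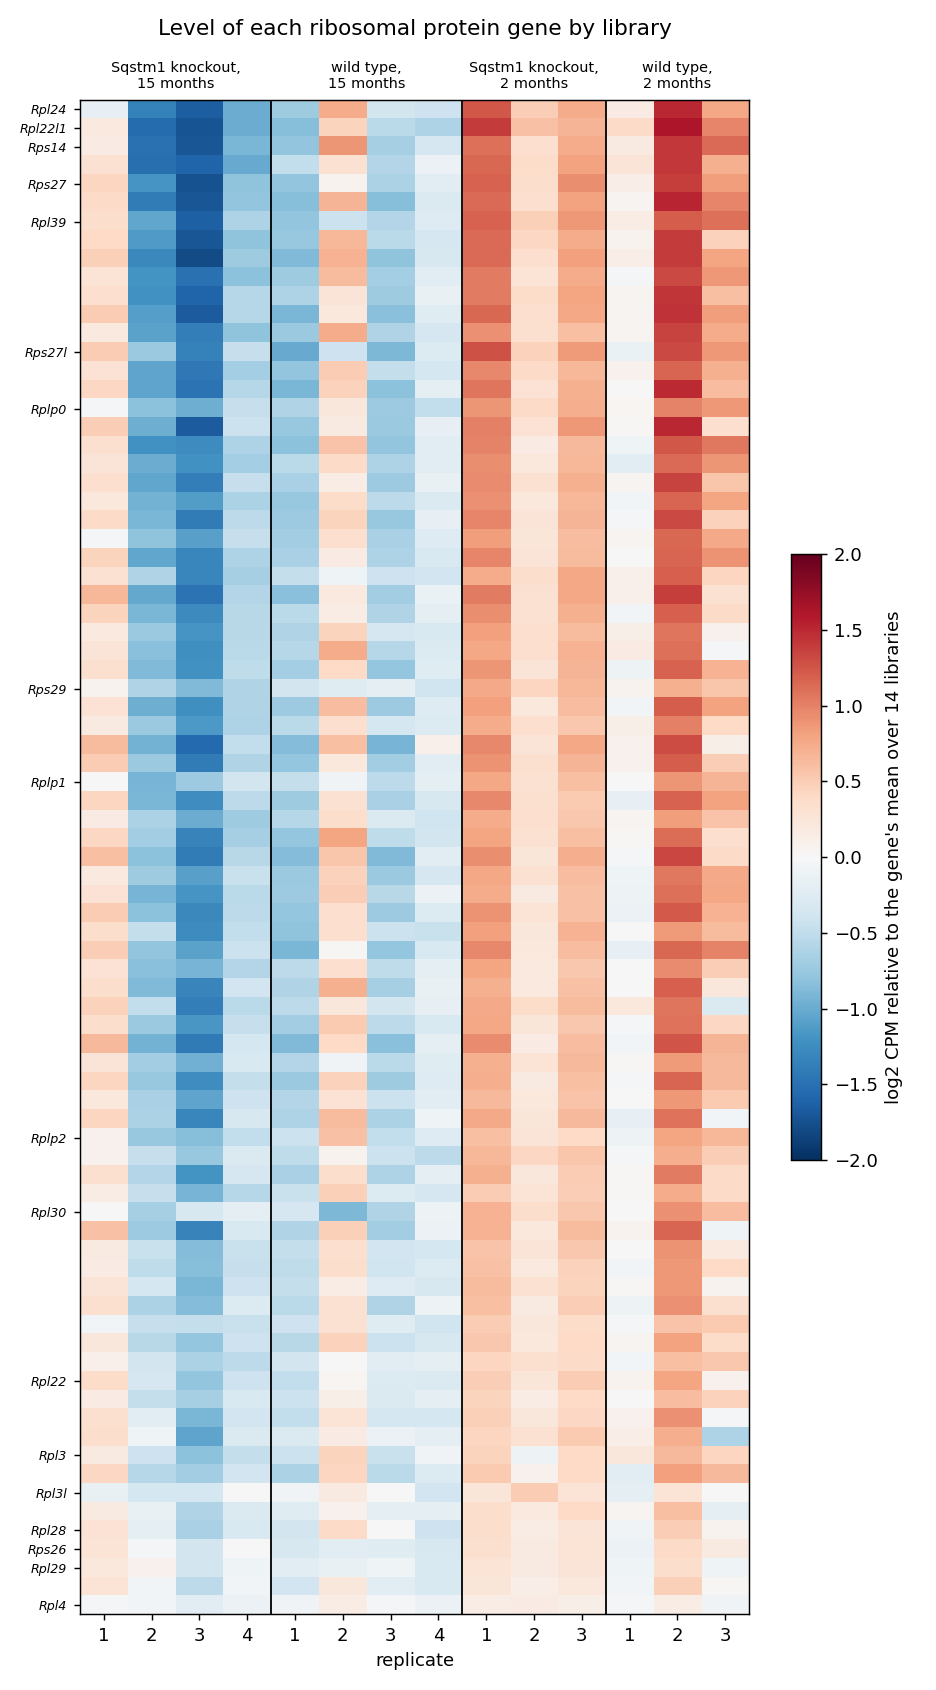
Level of each of the 81 tested members (rows, ordered by their log2 fold change with age in knockout hearts, some of them labelled) in each library (columns), as log2 CPM relative to the mean of the gene over the 14 libraries. The rows share 1 pattern, with 78 of 81 lowest in replicate 3 of the 15-month knockout hearts, and fade towards Rpl4 at the foot.

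Per kilobase of transcript, small subunit genes led the list. Rps15 averaged 654 CPM per kilobase over the 14 libraries, Rps12 averaged 596, Rps2 averaged 582 and Rps27 averaged 536. The lowest tested members on this scale were the paralogs Rpl7l1 (11) and Rpl22l1 (25.7), followed by Rps20 (26.7) and Rps15a (28.5), whose transcript models used here are long (3706 bases for Rps20 and 5130 bases for Rps15a), which lowers their value. Many members have near-identical processed pseudogenes: a median of 55.0% of a member's 50-base stretches occurred in the transcripts of other genes, and in 48 members the shared stretches outnumbered the unique ones. That share was 0.0% for Rpl3l, 16.5% for Rpl4 and Rpl39, 35.8% for Rps29, 81.7% for Rpl24 and 98.6% for Rps27, so the levels of members with high shares depend on how the authors' counting treated such reads. The 294 pseudogenes recognised by symbol summed to 33.9 to 157 CPM per library and moved with the members: they averaged 62.9 CPM in 15-month knockout, 67.0 CPM in 15-month wild-type, 108 CPM in 2-month knockout and 112 CPM in 2-month wild-type hearts.

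With age, in knockout hearts, all 81 tested members had a log2 fold change below 0 (15 against 2 months), which was so for 49.4% of all 15528 genes tested. The median was -1.01, against 0.01 over all genes. Of these members, 4 fell past the threshold of an adjusted p under 0.05 (edgeR's quasi-likelihood F-test, Benjamini-Hochberg adjustment over all genes), at a background of 1.18% of all genes, and 0 rose (background 1.07%). In 34 of 81 members each 15-month knockout heart lay below each 2-month one, at a background of 11.3%. In wild-type hearts the 81 fold changes were again below 0 (51.7% of all genes), with a median of -0.87 against -0.02 over all genes. There 1 member fell past the threshold, at a background of 0.425%, and 0 rose (background 0.612%). In 11 of 81 members the 15-month hearts all lay below the 2-month ones, at a background of 7.57%. At an unadjusted p under 0.05, 72 of 81 members were lower in knockout hearts (background 14.1%) and 57 of 81 in wild-type hearts (background 12.7%). At an adjusted p under 0.1 (edgeR), 40 were lower in knockout hearts (background 5.84%) and 8 in wild-type hearts (background 2.38%). DESeq2 called 41 lower in knockout hearts (background 5.24%) and 14 in wild-type hearts (background 3.89%), and limma voom called 11 in knockout hearts (background 2.15%) and 0 in wild-type hearts (background 0.406%). Members share their libraries, so a count of members is not a count of independent observations.

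These counts of calls rest on single libraries. In knockout hearts the 4 calls became 76 without replicate 1 of the 15-month knockout (12.3% of all genes were then called lower), 13 without replicate 2 of the 15-month wild type (2.23% of all genes) and 12 without replicate 1 of the 2-month wild type (1.88% of all genes). They became 2 without replicate 1 of the 15-month wild type (0.74% of all genes). They became 1 without replicate 4 of the 15-month wild type (0.645% of all genes) or replicate 2 of the 2-month knockout (0.254%). They became 0 without replicate 2, 3 or 4 of the 15-month knockout or replicate 1 or 3 of the 2-month knockout. In those runs 0.124% to 0.306% of all genes were called lower. In wild-type hearts the 1 call became 15 without replicate 1 of the 15-month knockout (2.92% of all genes). It became 11 without replicate 1 of the 2-month wild type (1.93% of all genes). It became 0 without each of the other libraries but 2, in runs where 0.0714% to 0.325% of all genes were called lower. Without replicate 3 of the 15-month knockout (0.625% of all genes) the 1 call was another gene, Rpl39 (adjusted p = 0.0479, edgeR). Without replicate 2 of the 15-month wild type (0.314% of all genes) the 1 call was Rplp0 (adjusted p = 0.0493, edgeR). The median with age in wild-type hearts was -0.51 without replicate 2 of the 2-month wild type.

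Of the 3 stalk proteins, which recruit elongation factors to the large subunit, Rplp0 and Rplp1 fell with age in knockout hearts, and none passed the threshold in wild-type hearts. The difference of the genotype effects was called for 0 of the 3, with a median of -0.17. Both knockout calls were lost in a fit of the compared groups alone (adjusted p = 0.0677 for Rplp0 and 0.0776 for Rplp1, edgeR). They were also lost with the length slope as a covariate (adjusted p = 0.317 for Rplp0 and 0.316 for Rplp1, edgeR) and without replicate 2, 3 or 4 of the 15-month knockout. Rplp0, the base of the stalk (chr5:115559467-115563727 on GRCm38), had 585, 338, 302 and 430 CPM in the 15-month knockout hearts, against 1100, 776 and 986 CPM in the 2-month knockout hearts. All 4 aged hearts lay below the 3 young ones, and the gene fell, with a log2 fold change of -1.21 (SE 0.28, adjusted p = 0.043, edgeR). Its partner Rplp1 had 219, 115, 132 and 170 CPM in the 15-month knockout hearts, against 376, 272 and 334 CPM in the 2-month ones, and fell by 1.04 on the log2 scale (SE 0.24, adjusted p = 0.0384, edgeR). Rplp2, the other acidic protein, was at -0.88 (SE 0.29, adjusted p = 0.0942, edgeR), and its groups did not overlap either. In wild-type hearts the values were -1.04 for Rplp0 (SE 0.28, adjusted p = 0.0828, edgeR), -0.87 for Rplp1 (SE 0.24, adjusted p = 0.0817, edgeR) and -0.58 for Rplp2 (SE 0.29, adjusted p = 0.24, edgeR). There Rplp0 ranged from 360 to 694 CPM at 15 months and from 613 to 1180 CPM at 2 months, so that 1 aged heart lay above the lowest young one.

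Small subunit genes had a median log2 fold change with age of -1.08 in knockout hearts, where 1 of 30 fell (background 1.18% of all genes), and of -0.90 in wild-type hearts, where 0 of 30 did (background 0.425%). The one that fell was Rps29, a short zinc-binding protein of the small subunit head (chr12:69157722-69159186). It had 168, 105, 86.9 and 105 CPM in the 15-month knockout hearts, against 269, 215 and 253 CPM in the 2-month knockout hearts. No aged heart reached the young range, and the log2 fold change was -1.08 (SE 0.20, adjusted p = 0.0184, edgeR). The call of Rps29 was lost in a fit of the compared groups alone (adjusted p = 0.0706, edgeR) and with the length slope as a covariate (adjusted p = 0.0873, edgeR). In wild-type hearts Rps29 had 124, 135, 139 and 121 CPM at 15 months, against 168, 262 and 235 CPM at 2 months. Those groups did not overlap, and the log2 fold change was -0.77 (SE 0.20, adjusted p = 0.077, edgeR). Rps27, of the platform side of the subunit, stood at -1.45 in knockout (adjusted p = 0.0754, edgeR) and -1.23 in wild-type hearts (adjusted p = 0.126, edgeR). Rps14, which lines the path of the mRNA, stood at -1.55 in knockout (adjusted p = 0.0796, edgeR) and -1.05 in wild-type hearts (adjusted p = 0.191, edgeR). Rps26, which contacts the mRNA at the exit site, varied least of the subunit, with 123, 99.1, 78.8 and 101 CPM in 15-month knockout, 80.8, 86.5, 85.6 and 80.7 CPM in 15-month wild-type, 127, 115 and 123 CPM in 2-month knockout and 93.2, 132 and 115 CPM in 2-month wild-type hearts.

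Among large subunit genes the median was -0.91 in knockout hearts, where 1 of 43 fell (background 1.18% of all genes), and -0.70 in wild-type hearts, where 1 of 43 fell (background 0.425%). Rpl24, which forms a bridge to the small subunit, had the lowest fold change of all members in knockout hearts. Its level was 26.6, 11.6, 9.45 and 14.9 CPM in the 15-month knockout hearts, against 70.1, 41.9 and 49.8 CPM in the 2-month ones. The groups were apart, and Rpl24 fell by 1.79 on the log2 scale (SE 0.40, adjusted p = 0.0372, edgeR). That call was lost in a fit of the compared groups alone (adjusted p = 0.0572, edgeR) and with the length slope as a covariate (adjusted p = 0.142, edgeR). In wild-type hearts Rpl24 had 18.1, 49.9, 23.1 and 22.3 CPM at 15 months, against 33.3, 84.2 and 50.7 CPM at 2 months, with replicate 2 of the aged hearts inside the young range and a log2 fold change of -0.98 (SE 0.40, adjusted p = 0.161, edgeR). Its exons share 484 bases (46.99%) with the same-strand transcript model Gm28037, which was at 0 counts throughout, so reads of that stretch may have been lost from Rpl24 in the authors' counting.

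Rpl30 (chr15:34440505-34443640), which in yeast regulates the splicing of its own transcript, was the member that fell in wild-type hearts. It had 85.1, 57.5, 70.1 and 100 CPM in the 15-month wild-type hearts, against 106, 201 and 164 CPM in the 2-month ones. The highest aged heart stayed just under the lowest young one, and the log2 fold change was -1.0 (SE 0.23, adjusted p = 0.0496, edgeR), at the edge of the threshold. The call was lost with RLE scaling (adjusted p = 0.0507, edgeR), limma voom (adjusted p = 0.0532), a fit of the compared groups alone (adjusted p = 0.0848, edgeR), a replicate block (adjusted p = 0.0688, edgeR), the length slope as a covariate (adjusted p = 0.182, edgeR) and 12 of 14 single libraries left out, over which the adjusted p ran from 0.0184 to 0.236 (edgeR). In knockout hearts Rpl30 had 108, 67.3, 85.4 and 93.0 CPM at 15 months, against 173, 137 and 155 CPM at 2 months, a log2 fold change of -0.81 (SE 0.23, adjusted p = 0.0659, edgeR). Of its exon bases, 20.4% lie opposite another transcript model, whose reads cannot be told apart from its own without the strand setting. Rpl39, a very short protein of the exit tunnel and X-linked, reached -1.42 in knockout (adjusted p = 0.0547, edgeR) and -1.39 in wild-type hearts (adjusted p = 0.0749, edgeR), without overlap of the ages in either. At the other end Rpl4, which extends a loop into the exit tunnel, had 277, 273, 246 and 263 CPM in 15-month knockout, 271, 314, 277 and 263 CPM in 15-month wild-type, 314, 319 and 308 CPM in 2-month knockout and 279, 314 and 272 CPM in 2-month wild-type hearts. Its log2 fold change was -0.24 in knockout (SE 0.12, adjusted p = 0.195, edgeR) and -0.04 in wild-type hearts (SE 0.12, adjusted p = 0.881, edgeR). Rpl29 and Rpl28 also lay closer to 0 than the median member: Rpl29 was at -0.27 in knockout and -0.26 in wild-type hearts, and Rpl28 at -0.44 in knockout and -0.24 in wild-type hearts.

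**Figure D3:**
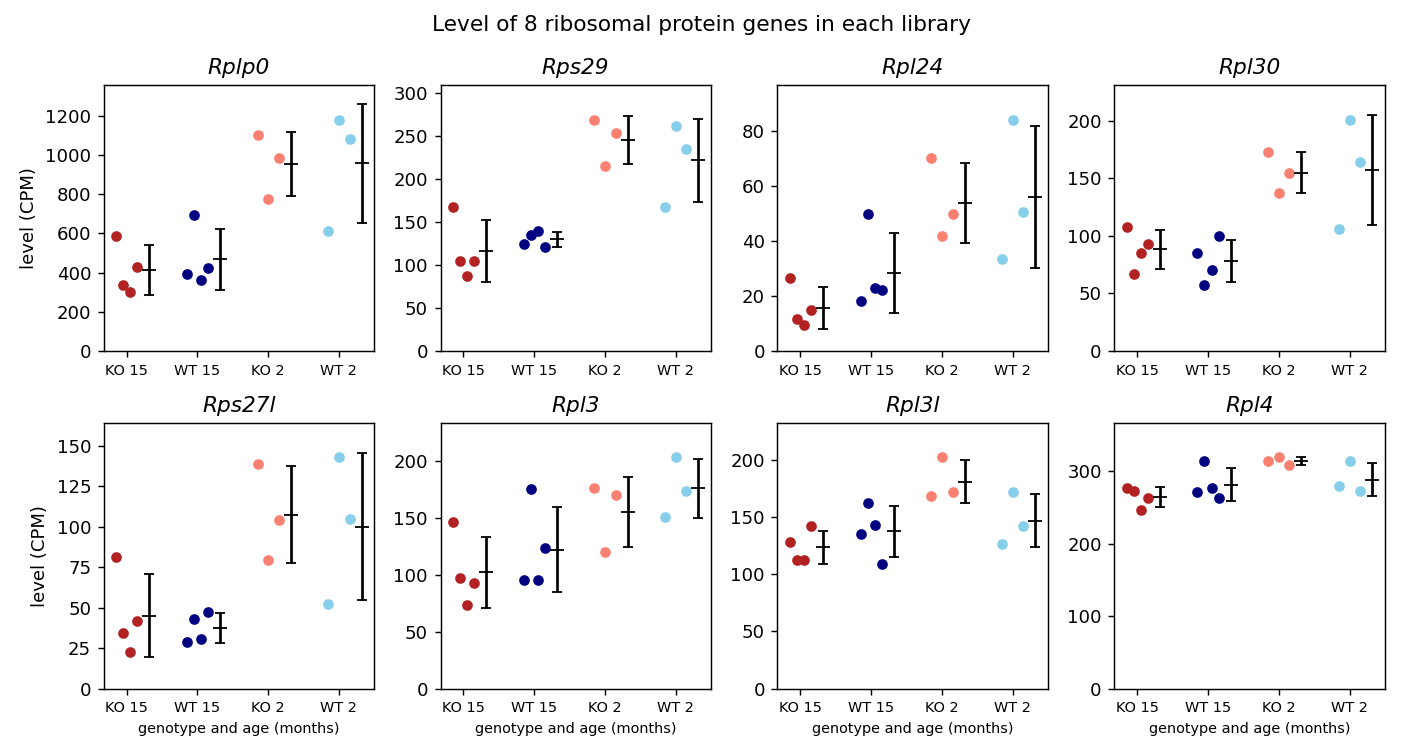
Level in CPM of 8 members in each library, by genotype (KO, Sqstm1 knockout; WT, wild type) and age in months, with the mean and SD of each group. Rplp0, Rps29, Rpl24, Rpl30 and Rps27l are lower in most 15-month hearts than in 2-month hearts, and Rpl4 stays between 246 and 319 CPM in all 14.

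Rpl3l, the muscle paralog of Rpl3 (74.1% identical over the aligned coding bases), averaged 105 CPM per kilobase over the libraries, against 99.9 CPM for Rpl3. Of the 50-base stretches of Rpl3, 85.6% occur in other genes, against 0.0% of those of Rpl3l, so this comparison and the share below depend on how shared reads were counted. Rpl3l had 128, 112, 112 and 142 CPM in 15-month knockout, 135, 162, 143 and 109 CPM in 15-month wild-type, 168, 202 and 172 CPM in 2-month knockout and 126, 172 and 142 CPM in 2-month wild-type hearts. The aged knockout hearts lay below the young ones without overlap, at a log2 fold change of -0.55 (SE 0.16, adjusted p = 0.0724, edgeR), and the wild-type ages overlapped, at -0.09 (SE 0.16, adjusted p = 0.746, edgeR). Rpl3 itself was at -0.60 in knockout (adjusted p = 0.144, edgeR) and -0.52 in wild-type hearts (adjusted p = 0.217, edgeR). As a share of Rpl3 and Rpl3l together, per length, Rpl3l made up 55.0 ± 6.67% in 15-month knockout and 53 ± 6.97% in 15-month wild-type hearts (SD, n = 4 each), and 53.5 ± 7.62% in 2-month knockout and 45.0 ± 0.351% in 2-month wild-type hearts (SD, n = 3 each). None of these shares was tested.

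The other paralogs were less abundant than their relatives. Per kilobase, over all libraries, Rps27l averaged 136 CPM against 536 for Rps27, Rpl36al averaged 35.3 against 100 for Rpl36a, Rpl22l1 averaged 25.7 against 140 for Rpl22, and Rpl7l1 averaged 11 against 240 for Rpl7. Rpl22l1, which can take the place of Rpl22 in the ribosome, had 12.9, 3.86, 3.40 and 5.68 CPM in 15-month knockout hearts, against 29.6, 16.9 and 18.0 CPM in 2-month knockout hearts. These groups were apart, at a log2 fold change of -1.75 (SE 0.44, adjusted p = 0.0528, edgeR), while Rpl22 was at -0.65 (SE 0.24, adjusted p = 0.115, edgeR). In wild-type hearts the values were -1.38 for Rpl22l1 (adjusted p = 0.107, edgeR) and -0.59 for Rpl22 (adjusted p = 0.162, edgeR). Rps27l, a p53 target in human cells, had the lowest fold change of all members in wild-type hearts. It had 28.7, 43.1, 30.7 and 47.4 CPM at 15 months, against 52.5, 143 and 105 CPM at 2 months in wild-type hearts. The aged range ended below the young one, at a log2 fold change of -1.42 (SE 0.39, adjusted p = 0.0819, edgeR). In knockout hearts it was -1.26 (SE 0.39, adjusted p = 0.0815, edgeR), with overlap.

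The length slope of a library and the summed level of the members ran in nearly opposite order. Among the 15-month hearts, ordered by rising slope, the sums were 18488 (knockout replicate 1, slope -0.099), 19310 (wild-type replicate 2, slope -0.080), 12501, 10824, 10275, 9804, 9128 and 7133 CPM (knockout replicate 3, slope 0.253). Among the 2-month hearts in the same order they were 31507 (wild-type replicate 2, slope -0.186), 26079, 22752, 21859, 18140 and 15023 CPM (wild-type replicate 1, slope -0.013). The 2 aged hearts that reached the young range are the 2 aged hearts with a slope below 0. They were also the aged hearts with the lowest cardiac muscle marker sums, 54300 CPM in the knockout and 54100 CPM in the wild-type heart, against 67500 to 95300 CPM in the other 6 aged hearts and 48900 to 66200 CPM in the young hearts. Of the 10 markers, 0 passed the test with age in either genotype. Log2 fold changes with age were below 0 for 6 of the 10 in knockout hearts (median -0.09) and for 4 in wild-type hearts (median 0.17). The sums therefore do not stand for every marker. Endothelial markers (7 genes) summed to 332 to 1180 CPM in 15-month knockout, 352 to 524 CPM in 15-month wild-type, 340 to 399 CPM in 2-month knockout and 321 to 383 CPM in 2-month wild-type hearts. Fibroblast markers (8 genes) had a median log2 fold change with age of 0.47 in knockout hearts, with 2 of 8 below 0. In wild-type hearts their median was -0.73, with 8 of 8 below 0, and 0 were called in either genotype. The part of these marker levels in the result was not tested.

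With the length slope as a covariate in the edgeR model, the median log2 fold change with age was -0.13 in knockout hearts, where 62 of 81 members were below 0, and -0.10 in wild-type hearts, where 66 of 81 were below 0. No member was called lower or higher in that fit. At an unadjusted p under 0.05 (edgeR), 12 of 81 were lower in knockout and 11 of 81 in wild-type hearts. Of all 15528 genes, 860 were lower at that p in knockout and 1245 in wild-type hearts. Fold changes below 0 numbered 8259 of 15528 in knockout and 8207 in wild-type hearts, with a median of -0.02 in each. The fit called 29 genes lower and 54 higher in knockout hearts, and 55 lower and 73 higher in wild-type hearts. A slope computed without the members, a setting added after the data were seen, gave the same 2 medians of the members. The members that kept the lowest values under the covariate in knockout hearts were Rpl24 (-0.73, SE 0.19), Rpl22l1 (-0.65, SE 0.19) and Rps29 (-0.64, SE 0.15), and in wild-type hearts Rpl30 (-0.77, SE 0.26), Rpl39 (-0.58, SE 0.20) and Rps27l (-0.53, SE 0.20). Rplp0 was then at -0.47 in knockout and -0.48 in wild-type hearts, and Rplp1 at -0.47 in knockout and -0.41 in wild-type hearts. The slope differs between the ages, so a change with age that follows gene length and a change of the libraries with length cannot be told apart in these samples.

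**Figure D4:**
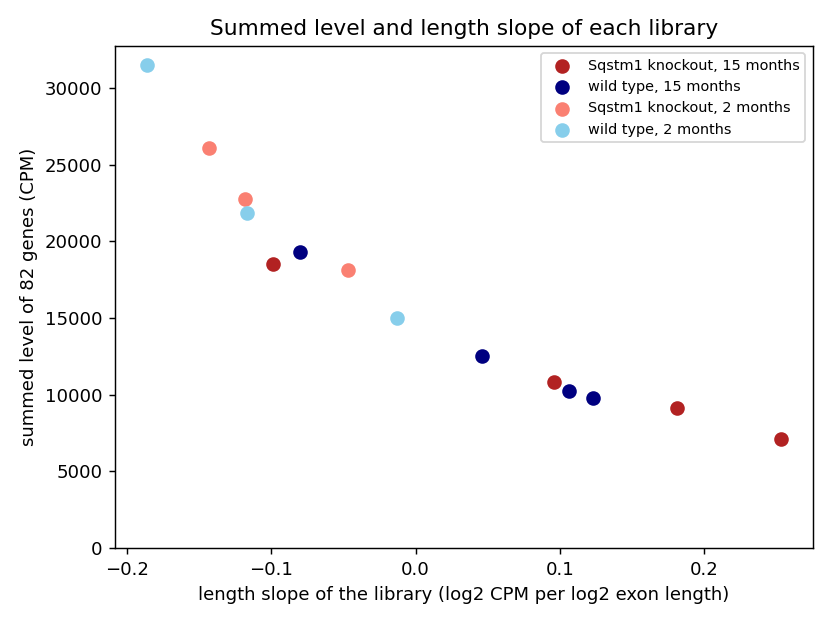
Summed level of the 82 genes in CPM against the length slope of the library (log2 CPM per log2 exon length), 1 point per library, coloured by group. The sums run from 31507 CPM at a slope of -0.186 down to 7133 CPM at a slope of 0.253, and the 2 aged hearts with slopes below 0 lie among the young hearts.

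**Figure D5:**
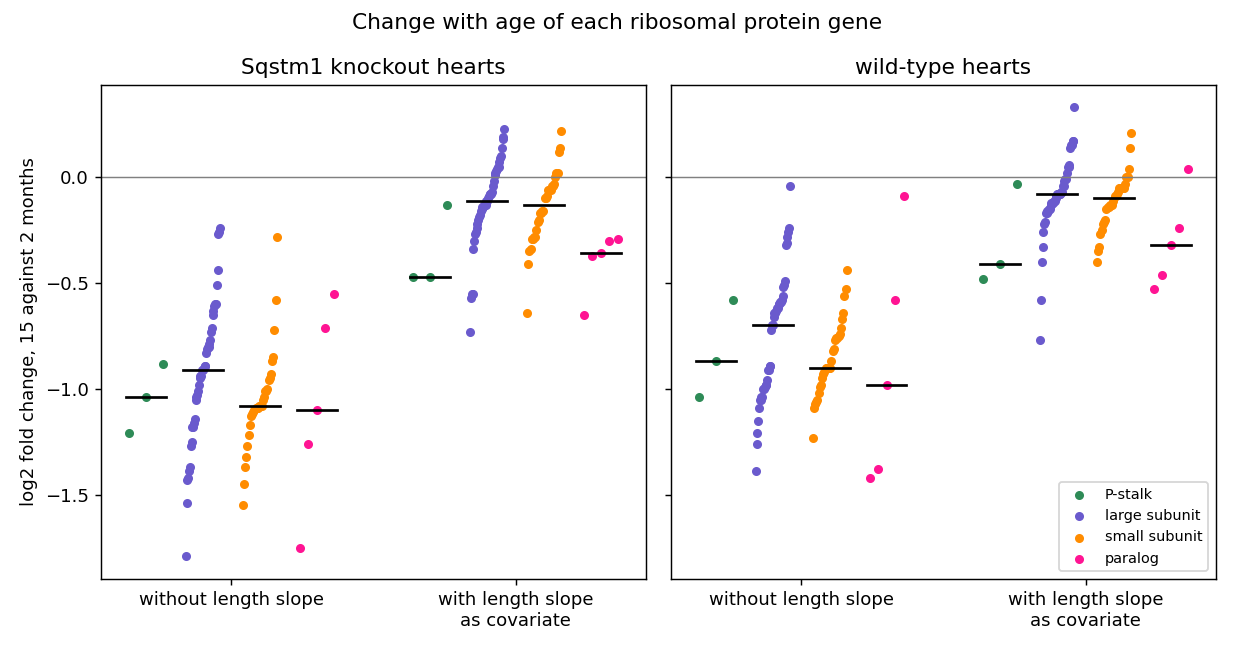
Log2 fold change with age (15 against 2 months) of each tested member, by class, in knockout and wild-type hearts, from the fit without and with the length slope as a covariate. Black lines are class medians. The median over all members moves to -0.13 in knockout and -0.10 in wild-type hearts with the covariate.

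Within the members the change with age was graded by transcript length. In knockout hearts the median log2 fold change was -1.10 in the 27 shortest (345 to 597 bases), -1.03 in the 27 next and -0.85 in the 27 longest (914 to 5130 bases). In wild-type hearts it was -0.98, -0.81 and -0.63 over the same sets. By the share of 50-base stretches found in other genes, sets of 27 had medians of -1.01, -1.04 and -0.95 in knockout and -0.77, -0.90 and -0.76 in wild-type hearts, from the lowest to the highest share. Members with a pyrimidine tract at the start had medians of -0.98 in knockout and -0.76 in wild-type hearts (37 genes), against -1.04 in knockout and -0.90 in wild-type hearts for those without one (24 genes). The 29 members that host snoRNA genes in their span had medians of -0.91 in knockout and -0.76 in wild-type hearts, against -1.04 in knockout and -0.88 in wild-type hearts for the other 52. The 4 X-linked members (Rpl10, Rpl36a, Rpl39 and Rps4x) had medians of -0.83 in knockout and -0.59 in wild-type hearts. These splits are descriptions with no test.

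Between genotypes, no member passed the threshold at either age. At 15 months 0 of 81 members were called lower or higher, at a background of 0.00644% of all genes lower (1 gene, Sqstm1). At an unadjusted p under 0.05, 1 was lower (background 2.14%) and 0 were higher (background 1.82%). DESeq2 (background 0.0258%) and limma voom called 0 members as well. The fold changes of 74 of 81 members were below 0 (48.3% of all genes), with a median of -0.17. The gene with an unadjusted p under 0.05 was Rpl24, which had 26.6, 11.6, 9.45 and 14.9 CPM in knockout hearts, against 18.1, 49.9, 23.1 and 22.3 CPM in wild-type hearts. Its groups overlapped, with a log2 fold change of -0.86 (SE 0.38, adjusted p = 0.999, edgeR). Rps26, in the other direction, was at 0.27 (SE 0.14, adjusted p = 0.999, edgeR). With the length slope as a covariate the median of the members was 0.02.

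At 2 months 0 of 81 members were called between genotypes, at a background of 0.00644% lower and 0% higher, and 0 at an unadjusted p under 0.05 (background 2.02% lower and 1.17% higher). Here 52 of 81 fold changes were below 0 (50.3% of all genes), with a median of -0.02. DESeq2 (background 0.0194%) and limma voom called 0 members too. The smallest p belonged to Rpl3l, with 168, 202 and 172 CPM in knockout hearts, against 126, 172 and 142 CPM in wild-type hearts. One wild-type heart reached the middle knockout heart at 172 CPM, and the log2 fold change was 0.30 (SE 0.17, adjusted p = 1, edgeR). Averaged over both ages, 69 of 81 fold changes were below 0 (49.7% of all genes), with a median of -0.10 and 0 called. The 15-month minus 2-month difference of the genotype effects was below 0 in 72 of 81 members (49.3% of all genes), with a median of -0.18. It was called for 0 members by edgeR, DESeq2 (background 0.00645%) or limma voom, and for 0 at an unadjusted p under 0.05 (background 1.51% lower and 2.21% higher). The members with the largest negative difference were Rpl24 (-0.81, SE 0.57), Rps9 (-0.54, SE 0.54), Rpl36 (-0.50, SE 0.65) and Rps14 (-0.50, SE 0.67), each less than 2 SE from 0.

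Other gene groups of the translation machinery are set beside these values, each by its count of genes past the threshold with age and its median log2 fold change. For these and the following lists, the background of genes called lower with age was 1.18% in knockout and 0.425% in wild-type hearts. At that background, 1 call in a list of this size says little about the list. The 5 tested ribosomal protein genes outside the symbol rule had medians of -0.77 in knockout and -0.54 in wild-type hearts, with 0 called. Rack1, a scaffold on the small subunit, was at -1.07 in knockout (adjusted p = 0.0932, edgeR) and -0.91 in wild-type hearts (adjusted p = 0.149, edgeR). The 24 other TOP mRNAs had medians of -0.35 in knockout and -0.36 in wild-type hearts, and 1 fell in knockout hearts: Eif3k, an initiation factor 3 subunit, at -0.65 (SE 0.16, adjusted p = 0.0491, edgeR). The 32 initiation and elongation factors had medians of -0.14 in knockout and -0.05 in wild-type hearts, and Eif2s1, which encodes the alpha subunit of eIF2, fell in knockout hearts (-0.66, SE 0.16, adjusted p = 0.0485, edgeR).

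Ribosome biogenesis genes (39) had medians above 0, at 0.08 in knockout and 0.17 in wild-type hearts. Of these Polr1e, a subunit of RNA polymerase I, fell in knockout hearts (-0.95, SE 0.21, adjusted p = 0.0329, edgeR), and Nop10, a protein of the pseudouridylation snoRNPs, fell in wild-type hearts (-1.28, SE 0.29, adjusted p = 0.0498, edgeR). The 23 genes of the mTORC1 pathway and TOP regulation had medians of 0.11 in knockout and 0.22 in wild-type hearts, with 0 called. Eif4ebp1, the translation repressor under mTORC1, was at -0.75 in knockout hearts (adjusted p = 0.0779, edgeR), and Ddit4, an mTORC1 inhibitor, at -1.46 in wild-type hearts (adjusted p = 0.0564, edgeR). A list of 10 genes of the p53 pathway, which responds to free ribosomal proteins, had medians of -0.31 in knockout and -0.16 in wild-type hearts. Of these, 2 fell in knockout hearts: Phlda3, an inhibitor of Akt (-1.43, SE 0.20, adjusted p = 0.00268, edgeR) and Eda2r, a receptor of the tumour necrosis factor family (-1.10, SE 0.22, adjusted p = 0.0234, edgeR). In wild-type hearts 0 of the 10 were called, with Phlda3 at -0.77 (SE 0.20, adjusted p = 0.0749, edgeR). The difference of the genotype effects was called for 0 of the 10.

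Genes of mitochondrial assemblies had medians with age between those of the members and of all genes. Their median exon lengths were 2394 bases (mitochondrial ribosomal proteins) and 1532 bases (complex I), against 1781 bases for the 81 tested members. The 78 mitochondrial ribosomal protein genes had medians of -0.62 in knockout and -0.43 in wild-type hearts. In knockout hearts 3 of them fell (background 1.18% of all genes): Mrps30 (-0.58), Mrpl34 (-0.86) and Mrpl36 (-0.75). In wild-type hearts 0 did (background 0.425%). The 36 nuclear-encoded subunits of complex I, the first enzyme of the respiratory chain, had medians of -0.81 in knockout hearts, where Ndufb6 fell (-1.37, SE 0.33, adjusted p = 0.0435, edgeR), and -0.64 in wild-type hearts, where 0 did. With the length slope as a covariate the medians of the mitochondrial ribosomal proteins were -0.09 in knockout and -0.06 in wild-type hearts, and those of complex I were -0.16 in knockout and -0.07 in wild-type hearts. No difference between these lists and the members was tested.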

How the data were processed

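RNA was measured in 14 whole hearts, 1 library each. Raw counts per gene are what the authors deposited. cutadapt 1.16, STAR 2.7.3a, featureCounts 1.6.3, DESeq2 1.26.0 and GRCm38 are named in the submitters' processing notes; annotation, strand setting and treatment of multi-mapping reads: not given in the sources used here. Groups come from the labels, which do not say that hearts were handled separately, so p-values cover only the spread between these 14 libraries.

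Genes were kept by filterByExpr (minimum count 10, minimum total 15), scaled with TMM and fitted in edgeR 4.0.16 (R 4.3.3) by a robust quasi-likelihood model with 1 mean per group over all 14 libraries and 6 contrasts. Benjamini-Hochberg adjustment ran over 15528 genes, with a threshold of 0.05. SE is the log2 fold change divided by the square root of F. CPM divide counts by the TMM-scaled library total; CPM per kilobase use 1 transcript per gene (GENCODE M21, which held 55227 of the identifiers). The procedure was tested on simulated data. The named members are the called ones, the smallest p-values and largest changes per contrast, the extremes in level and spread, and the paralogs with their relatives, of which a few are not reported here; members and lists were chosen with earlier results of these data known. Alternatives were DESeq2 1.42.0, limma 3.58.1 voom, RLE scaling, other filters, a replicate block, a fit of the compared groups alone, no mitochondrially encoded genes, the length slope as a covariate, and leaving out each library. No library repeated another: the lowest chi-square per degree of freedom within a group was 27.3.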

Additional observations from a re-analysis of the deposited data

Results flagged for a closer look

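Dixon's test was applied to the named members and their sums in the groups of 4 libraries, 70 tests in all, of which chance flags about 1 in 20. In 15-month wild-type hearts the highest library stood apart from the other 3 for Rpl22l1 (15.3 CPM), Rpl24 (49.9 CPM), Rpl7 (362 CPM), Rplp2 (241 CPM), Rps14 (421 CPM) and Rps2 (579 CPM). All 6 values belong to replicate 2, whose length slope was -0.080, against 0.046 to 0.123 in the other 3. In 15-month knockout hearts the highest library stood apart for Rpl39l (0.27 CPM, replicate 1), a gene with 9 counts in that group.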

How the results depend on the processing

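In every contrast each alternative run kept the median of the members within the spread between libraries (0.50), except for the length slope as a covariate, with or without the members in the slope, which moved the medians with age to -0.13 in knockout and -0.10 in wild-type hearts and left 0 members called lower in either. This limit is wide. The medians between genotypes were all smaller than it, so it says little of them. The 15-month median between genotypes went from -0.17 to 0.02 with the length slope and still counted as kept. So did the wild-type median with age, which went from -0.87 to -0.51 without replicate 2 of the 2-month wild type. Members called lower with age in knockout hearts numbered 41 with DESeq2, 11 with limma voom, 7 with no filter (0.835% of all genes), 0 with only the groups compared (0.332%), 39 with a replicate block (2.36%), 40 at an adjusted p threshold of 0.1 (added after the data were seen), and 0 to 76 with 1 library left out. In wild-type hearts they numbered 14 with DESeq2, 0 with RLE size factors (0.406% of all genes), 0 with limma voom and 3 with no filter (0.388% of all genes). They numbered 8 at a threshold of 0.1, and 0 to 15 with 1 library left out. Between genotypes 0 members were called under any alternative. Same-numbered libraries correlated between -0.441 and 0.32 in their deviations from the group means, and few correlated best with their own number, so the numbers were not taken as pairs; with the replicate block the 1 call in wild-type hearts was Rpl22l1 (adjusted p = 0.0454, edgeR) in place of Rpl30. Per total without mitochondrially encoded genes, the summed levels were 17600 (15-month knockout), 19875 (15-month wild type), 32833 (2-month knockout) and 34200 CPM (2-month wild type). Some signs turned. With age in wild-type hearts Rpl36a became 0.05 with the length slope. Without the slope it was not near 0, being 1 of the 4 X-linked members, whose values were -0.53 or lower. Rpl3l, near 0 without the slope, became 0.04 with it and 0.01 with the replicate block. It became 0.01 without replicate 4 of the 15-month wild type and 0.04 without replicate 2 of the 2-month wild type. With age in knockout hearts Rpl3, also not near 0 without the length slope, became 0.03 with it. Without replicate 2 of the 2-month wild type, Rpl35a became 0.05 and Rps14 0.03 (knockout against wild type, 2 months) and Rpl30 -0.03 (difference of the genotype effects), and without replicate 1 of the 15-month knockout Rpl35 became -0.16 (the same difference). With 1 library left out, those values ranged from -0.50 to 0.05 for Rpl35a, -0.52 to 0.03 for Rps14, -0.18 to 0.04 for Rpl3l, -0.03 to 0.41 for Rpl30 and -0.16 to 0.56 for Rpl35. The cause of these changes was not tested. Each tested member had at least 111 counts per library, and depth limits what can be said of Rpl39l.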
